A study of Homo sapiens with 8 samples.

Results

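The miR-183/miR-96/miR-182 cluster is a group of 3 neighbouring miRNA hairpins, and 4 of its mature miRNAs, chosen by name, are described here out of 1780 mature miRNAs counted: hsa-miR-182-5p, hsa-miR-183-5p, hsa-miR-96-5p and hsa-miR-183-3p. They were measured by small RNA sequencing in DLD1 and HT29, which are established human colorectal adenocarcinoma cell lines grown either as a 2D monolayer in flasks or as 3D multicellular spheroids (MCS) in agarose-coated round-bottom wells. Each line and culture had 2 libraries, 8 in all, labelled as biological replicates and prepared from total RNA after 6 days of growth. DLD1 cells were kept in RPMI and sequenced with version V3 of the NEXTflex small RNA kit, HT29 cells were kept in DMEM and sequenced with version V2, and all were unedited and untreated as far as the labels say, so cell line, medium and kit cannot be told apart. Each line is a single cancer cell line, and the MCS contained no other cell type by design.

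The 3 hairpins are known to be transcribed together as 1 precursor, which Drosha and Dicer cut into mature strands. The cluster is best known from sensory organs, where it is abundant, and its members are raised in many carcinomas, colorectal cancer among them. A miRNA recognises its targets mainly through its seed, bases 2 to 8 from the 5′ end, and the leading strands of the 3 hairpins have closely related seeds.

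The hairpins lie on the minus strand of chromosome 7 in GRCh37, with MIR183 at chr7:129414745-129414854, MIR96 at chr7:129414532-129414609 and MIR182 at chr7:129410223-129410332. In the direction of transcription, 135 bases separate MIR183 from MIR96 and 4199 bases separate MIR96 from MIR182. All 3 were within an intron of the long non-coding RNA gene ENSG00000286380 (chr7:129402900-129420060) in GENCODE release 44 lifted to that build.

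The mature sequences below, from RefSeq (GRCh38.p14 table), are shown because reads are assigned to the members by them and because their seeds define which members share targets. They are written 5′ to 3′ with the seed in capitals.
hsa-miR-182-5p: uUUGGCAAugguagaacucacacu
hsa-miR-183-5p: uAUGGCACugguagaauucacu
hsa-miR-96-5p: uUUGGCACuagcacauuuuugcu
hsa-miR-183-3p: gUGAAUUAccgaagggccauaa
hsa-miR-1271-5p: cUUGGCACcuagcaagcacuca

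Positions are counted from 1 at the 5′ end, with the base of the first-named miRNA written first. The seeds of hsa-miR-182-5p and hsa-miR-96-5p matched at 6 of 7 positions and differed by A8C. Those of hsa-miR-183-5p and hsa-miR-96-5p also matched at 6 of 7 and differed by A2U, and those of hsa-miR-182-5p and hsa-miR-183-5p matched at 5 of 7, differing by U2A and A8C. Outside the seed hsa-miR-182-5p and hsa-miR-183-5p were the closer pair, with 18 of 22 positions identical over the whole strand, against 12 of 23 for hsa-miR-182-5p and hsa-miR-96-5p. hsa-miR-1271-5p, from another hairpin, had the seed of hsa-miR-96-5p letter for letter, but it was barely present, with 0 to 28 counts per library. hsa-miR-183-3p, the opposite arm of the MIR183 hairpin, has an unrelated seed. For MIR182 and MIR96 the hairpins are given with both mature arms in capitals, since the arms are compared further on.
MIR182: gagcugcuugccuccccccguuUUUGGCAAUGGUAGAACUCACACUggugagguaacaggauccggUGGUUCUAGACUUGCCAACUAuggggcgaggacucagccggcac
MIR96: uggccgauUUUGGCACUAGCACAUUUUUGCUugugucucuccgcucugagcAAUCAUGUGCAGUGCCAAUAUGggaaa

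The libraries held 10495634 to 26211524 miRNA counts. miRNAs of epithelial cells (the miR-200 family) were abundant in both lines, whereas 5 markers of fibroblasts and smooth muscle summed to at most 11.3 CPM (counts scaled to the library total). The 5 blood cell markers summed to 13.2 to 32.1 CPM in DLD1 2D and 42.3 to 55.3 in DLD1 MCS, and to 12.2 to 54.6 in HT29 2D and 59.5 to 241 in HT29 MCS. Of these, hsa-miR-142-3p was called higher in DLD1 MCS (log2 fold change 1.49, edgeR, adjusted p = 2.5e-05), hsa-miR-142-3p (1.93) and hsa-miR-150-5p (2.31) were tested and not called in HT29, and hsa-miR-223-3p was at 0 in both lines. The part of these markers in the cluster's values was not tested. The HT29 libraries differed strongly between replicates: miR-10a-5p took 47.3% and 10.6% of the counts in 2D, then 38.5% and 6.57% in MCS, against 15.2% to 19.0% in DLD1. Upper quartile scaling factors, which were used to normalize the counts, spanned 0.522 to 1.66 in HT29 and 0.746 to 1.17 in DLD1. These are bulk libraries, so fewer cells of a type and less RNA per cell cannot be told apart.

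In DLD1 the cluster was an abundant part of the miRNA pool, and its leading strands were higher in MCS with upper quartile factors. How many of them were called depended on the scaling and the fit. The 4 members together took 1.47% and 1.5% of all miRNA counts in the 2D libraries and 2.13% and 2.04% in MCS. On this scale, that of library totals, the means were 1.48% ± 0.0222 and 2.08% ± 0.0663 (SD, n = 2), and the groups did not overlap. How often other miRNAs or clusters lacked overlap on it was not counted. The 95% Wilson interval of a share was at most 0.0133 percentage points wide, less than the difference between replicates. In HT29 the share was 0.845% and 0.685% in 2D and 0.879% and 0.757% in MCS, so that the cultures overlapped.

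hsa-miR-182-5p, from the hairpin farthest downstream, was the highest member in DLD1. Its normalized CPM was 8099 and 7580 in 2D and 13521 and 17220 in MCS. Both MCS libraries lay above both 2D libraries, and the mean rose from 7840 ± 367 to 15370 ± 2616 (SD, n = 2). The log2 fold change was 0.97 with a standard error of 0.27 and a 95% interval of 0.44 to 1.51 (edgeR quasi-likelihood test, adjusted p = 0.00145).

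hsa-miR-183-5p, the leading strand of the first hairpin, came next. It stood at 4828 and 5060 normalized CPM in the DLD1 2D libraries and at 6709 and 9748 in MCS. Means were 4944 ± 164 and 8229 ± 2149 (SD, n = 2), and the 2 MCS libraries were further apart than the 2D libraries. The log2 fold change was 0.73 ± 0.26 (SE), with an interval of 0.23 to 1.24 (edgeR, adjusted p = 0.0122).

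hsa-miR-96-5p, the leading strand of the middle hairpin, was far lower in DLD1 than its neighbours. It had 238 and 138 normalized CPM in 2D and 293 and 285 in MCS, without overlap, although the first 2D library was closer to MCS than to the second 2D library. The means were 188 ± 71.1 and 289 ± 5.13 (SD, n = 2). The log2 fold change of 0.62 ± 0.24 (SE) had an interval of 0.15 to 1.10 and passed with an adjusted p of 0.0260 (edgeR).

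hsa-miR-183-3p, the minor arm, had 48.5 and 45.5 normalized CPM in DLD1 2D and 56.4 and 65.5 in MCS. The groups did not overlap, but the log2 fold change of 0.38 ± 0.29 (SE), with an interval of -0.20 to 0.95, did not pass (edgeR, adjusted p = 0.307).

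**Figure D1:**
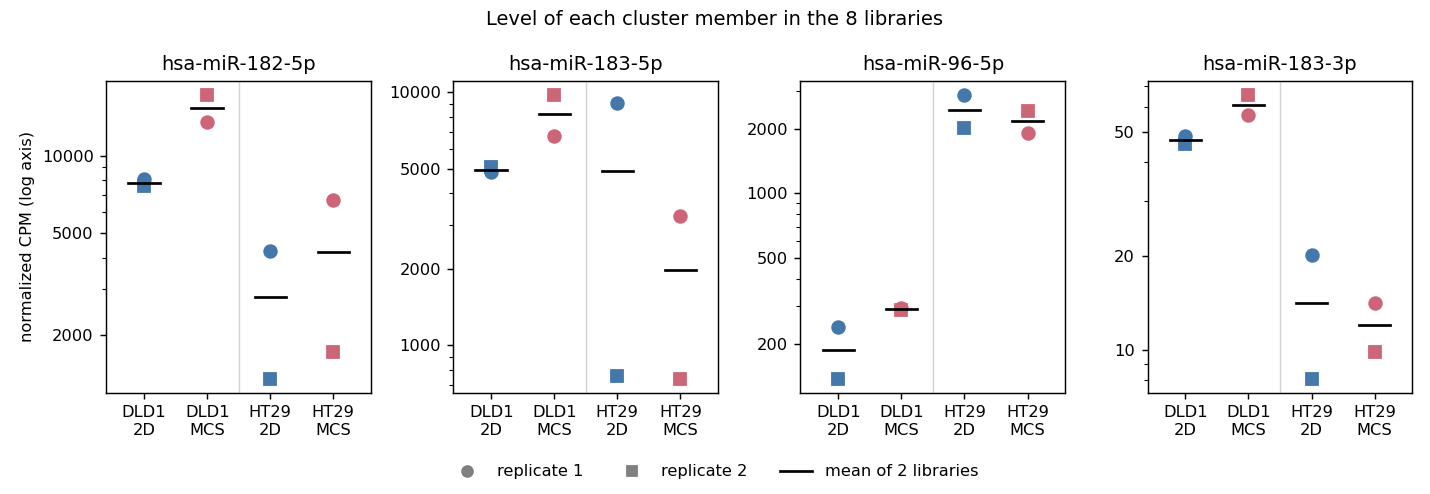
Normalized CPM (log axis, a separate scale for each panel) of the 4 members in each library, by cell line and culture; circles and squares are replicates 1 and 2 and bars are means of 2 libraries. In DLD1 the MCS libraries lie above the 2D libraries for every member shown, while in HT29 the cultures overlap and replicate 1 and replicate 2 of hsa-miR-183-5p lie far apart (9048 and 756 in 2D).

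Thus 3 of the 4 members were called in DLD1, all higher in MCS, where a call needs a fold change of at least 1.5 and an adjusted p under 0.05. Such calls were frequent in this comparison: of 346 miRNAs tested 143 (41.3%) were called, 103 (29.8%) of them as higher in MCS. In 45.4% of the tested miRNAs both MCS libraries lay above both 2D libraries, as they did for the 4 members. Ranked by p among the 346, hsa-miR-182-5p stood at 90, hsa-miR-183-5p at 119, hsa-miR-96-5p at 136 and hsa-miR-183-3p at 225, so none was among the leading changes of the line.

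The size of these changes depended on the scaling. The median log2 fold change of all tested miRNAs in DLD1 was 0.23, and relative to it the members were at 0.74, 0.51, 0.40 and 0.15 in the order in which they were described. Scaling to library totals moved the median by -0.37 and upper quartile factors over the tested miRNAs alone by -0.46. With those factors the share of calls that were higher in MCS went from 72.0% to 42.0% and 34.5%, and with TMM factors to 55.1%. As plain CPM of the library total, hsa-miR-182-5p had 8983 and 8849 in DLD1 2D and 14002 and 12843 in MCS, and hsa-miR-183-5p had 5355 and 5907 against 6948 and 7270, without overlap. The share of all tested miRNAs without overlap in this CPM was not counted for DLD1. On that scale hsa-miR-96-5p (264 and 161 against 303 and 213) and hsa-miR-183-3p (53.7 and 53.1 against 58.4 and 48.8) overlapped between the cultures, and hsa-miR-182-5p alone stayed called.

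Which members were called also depended on single libraries. Such fits leave 1 library in a group, so effect sizes are given. Without the first DLD1 2D library the log2 fold changes of hsa-miR-182-5p, hsa-miR-183-5p and hsa-miR-96-5p were 0.89, 0.57 and 0.95. Without the second 2D library they were 0.80, 0.65 and 0.16. They were 0.97, 0.81 and 0.45 without the first MCS library and 0.73, 0.38 and 0.59 without the second MCS library. The log2 fold change of hsa-miR-183-5p ranged from 0.38 to 0.81 and that of hsa-miR-96-5p from 0.16 to 0.95 over these fits, and that of hsa-miR-182-5p from 0.73 to 0.97.

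In HT29 no member passed the test, and the members did not share a direction. hsa-miR-182-5p had 4250 and 1345 normalized CPM in 2D and 6688 and 1709 in MCS. Replicate 1 was above replicate 2 in both cultures, and the cultures overlapped. Its log2 fold change was 0.59 ± 0.90 (SE) with an interval of -1.74 to 2.91 (edgeR, adjusted p = 0.977). In CPM of the library total it had 2220 and 2233 in 2D and 4959 and 2659 in MCS, without overlap. The other 3 members overlapped on that scale, and the share of all tested miRNAs without overlap on it was not counted.

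For hsa-miR-183-5p the HT29 values were 9048 and 756 normalized CPM in 2D and 3246 and 738 in MCS. A 12-fold difference separated the 2D replicates, which was matched or exceeded by 0.997% of the tested miRNAs, the median being 1.56-fold, and in MCS the replicates differed 4.40-fold against a median of 1.65-fold. The log2 fold change of -1.30 ± 1.31 (SE), interval -4.69 to 2.1, was therefore hardly bounded (edgeR, adjusted p = 0.977). It was -2.77 without the first MCS library and 1.39 without the first 2D library. That 2D library is also the library in which miR-10a-5p took 47.3% of the counts, and the part of this in the result was not tested.

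In normalized CPM hsa-miR-96-5p had the smallest replicate differences of the members in HT29, at 2861 and 2017 normalized CPM in 2D and 1913 and 2411 in MCS. Its replicates differed 1.42-fold and 1.26-fold on that scale, whereas in CPM of the library total they were far apart, at 1494 and 3348 in 2D and 1418 and 3750 in MCS. Its log2 fold change was -0.17 ± 0.43 (SE), interval -1.30 to 0.95. hsa-miR-183-3p had 20.1 and 8.07 normalized CPM in 2D and 14.1 and 9.84 in MCS, with a log2 fold change of -0.22 ± 0.60 (SE), interval -1.78 to 1.33. Both had an adjusted p of 0.977 (edgeR), and for both the cultures overlapped.

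None of the 301 miRNAs tested in HT29 was called with edgeR's quasi-likelihood test (0.0%), and 12 (3.99%) had an unadjusted p under 0.05, no member among them. DESeq2 called 12 miRNAs and edgeR's exact test 5, again with no member. A quasi-likelihood fit with a term for replicate number (the replicate block described further on) called 47, also without a member. The absence of calls in HT29 thus depended on the fit. In 28.6% of the tested miRNAs the cultures did not overlap in normalized CPM, against 0 of the 4 members. With intervals this wide, doublings of hsa-miR-182-5p and reductions of hsa-miR-183-5p were not detectable in HT29, nor can they be called absent.

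**Figure D2:**
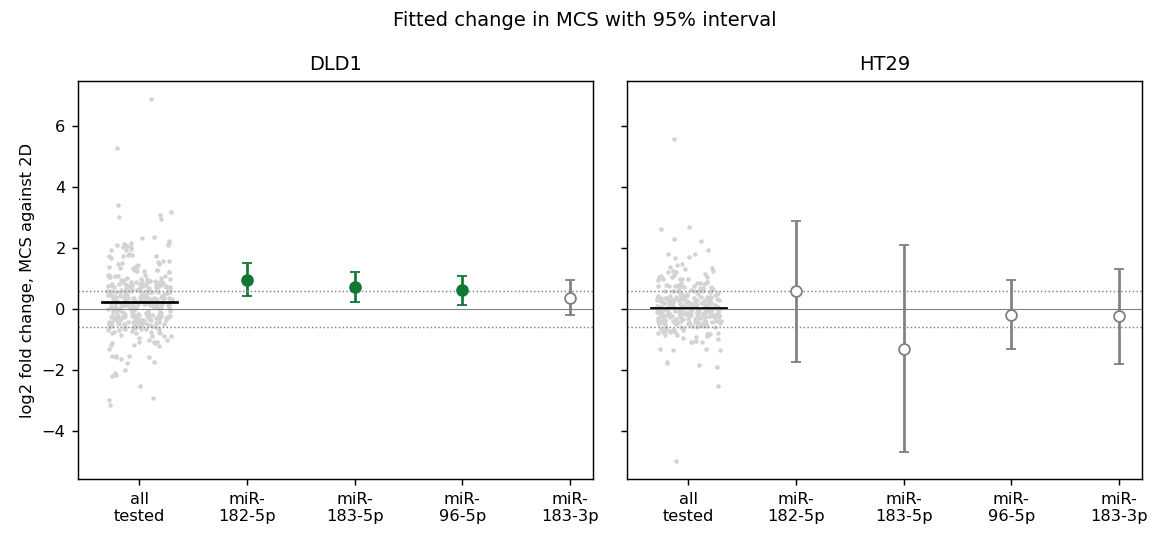
Log2 fold change of MCS against 2D for the members, with 95% intervals, beside all tested miRNAs of the line (grey dots, median as a black bar). Filled green points were called, open points were not, and dotted lines mark a fold change of 1.5; the DLD1 intervals of the 3 called members lie above 0, and every HT29 interval spans 0.

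The change in HT29 was compared with that in DLD1 by an interaction term over all 8 libraries. The difference (HT29 minus DLD1, log2) was -0.39 ± 1.02 (SE) for hsa-miR-182-5p, -2.03 ± 1.52 for hsa-miR-183-5p, -0.84 ± 0.48 for hsa-miR-96-5p and -0.61 ± 0.65 for hsa-miR-183-3p. Adjusted p-values from edgeR were 0.947, 0.749, 0.674 and 0.831. Of 250 miRNAs that entered this test none passed (0.0%), 9.2% had an unadjusted p under 0.05, and DESeq2 passed 21. These values come from the fit without a replicate block, on which the call of hsa-miR-183-5p depended.

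What did separate the lines was the level of the cluster and, in its make-up, hsa-miR-96-5p. The 4 members took 1.47% to 2.13% of all miRNA counts in DLD1 and 0.685% to 0.879% in HT29. The count ratio of hsa-miR-182-5p to hsa-miR-183-5p overlapped between the lines, as did the ratios between the arms of MIR183 and of MIR182. In DLD1 hsa-miR-182-5p took 61.3% and 59.1% of the members' counts in 2D and 65.7% and 63.0% in MCS, and hsa-miR-96-5p took 1.04% to 1.8%. In HT29 hsa-miR-96-5p took 17.7% and 48.9% in 2D and 16.1% and 49.5% in MCS. Within a library, the ratio of hsa-miR-96-5p to hsa-miR-182-5p counts, which needs no scaling, was 0.0294 and 0.0181 in DLD1 2D and 0.0217 and 0.0166 in DLD1 MCS. The same ratio was 0.673 and 1.5 in HT29 2D and 0.286 and 1.41 in HT29 MCS. Every HT29 library was above every DLD1 library, by 38.2-fold on average (5.25 in log2). How many other miRNAs, clusters or pairs of miRNAs separated the lines without overlap was not counted.

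The exact two-sided permutation test of this difference, with line labels permuted within each culture, gave p = 0.0556, the smallest value that its 36 arrangements allow, and 0.111 after adjustment over 6 ratios. hsa-miR-96-5p to hsa-miR-183-5p likewise differed 31.2-fold between the lines without overlap (exact permutation p = 0.0556, adjusted 0.111). In CPM of the library total hsa-miR-96-5p was at 161 to 303 in DLD1 and 1418 to 3750 in HT29, while hsa-miR-182-5p was at 8849 to 14002 and 2220 to 4959. Ranked by CPM within a library, hsa-miR-96-5p stood between 111 and 147 in DLD1 and between 37 and 53 in HT29, hsa-miR-182-5p between 13 and 22 against 23 and 50. Since kit version changed with the line, its part in these levels and ratios cannot be told apart from that of the cells. Read counts of different miRNAs need not reflect their relative abundance.

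Relative to hsa-miR-183-5p, hsa-miR-182-5p was higher in the MCS libraries, a difference that did not pass after adjustment. How often other pairs of miRNAs had this order was not counted. The count ratio of hsa-miR-182-5p to hsa-miR-183-5p was 1.68 and 1.5 in DLD1 2D against 2.02 and 1.77 in DLD1 MCS, and 0.470 and 1.78 in HT29 2D against 2.06 and 2.31 in HT29 MCS. In each line both MCS libraries lay above both 2D libraries. With culture labels permuted within each line, the mean difference of 1.69-fold (0.75 in log2) gave an exact permutation p of 0.0556, the smallest possible, and 0.333 after adjustment over 6 ratios. With 2 libraries against 2, a line on its own cannot give less than p = 0.3333 by an exact permutation test. The difference was 0.25 in log2 in DLD1 and 1.26 in HT29, where it was 0.30 without the first 2D library.

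**Figure D3:**
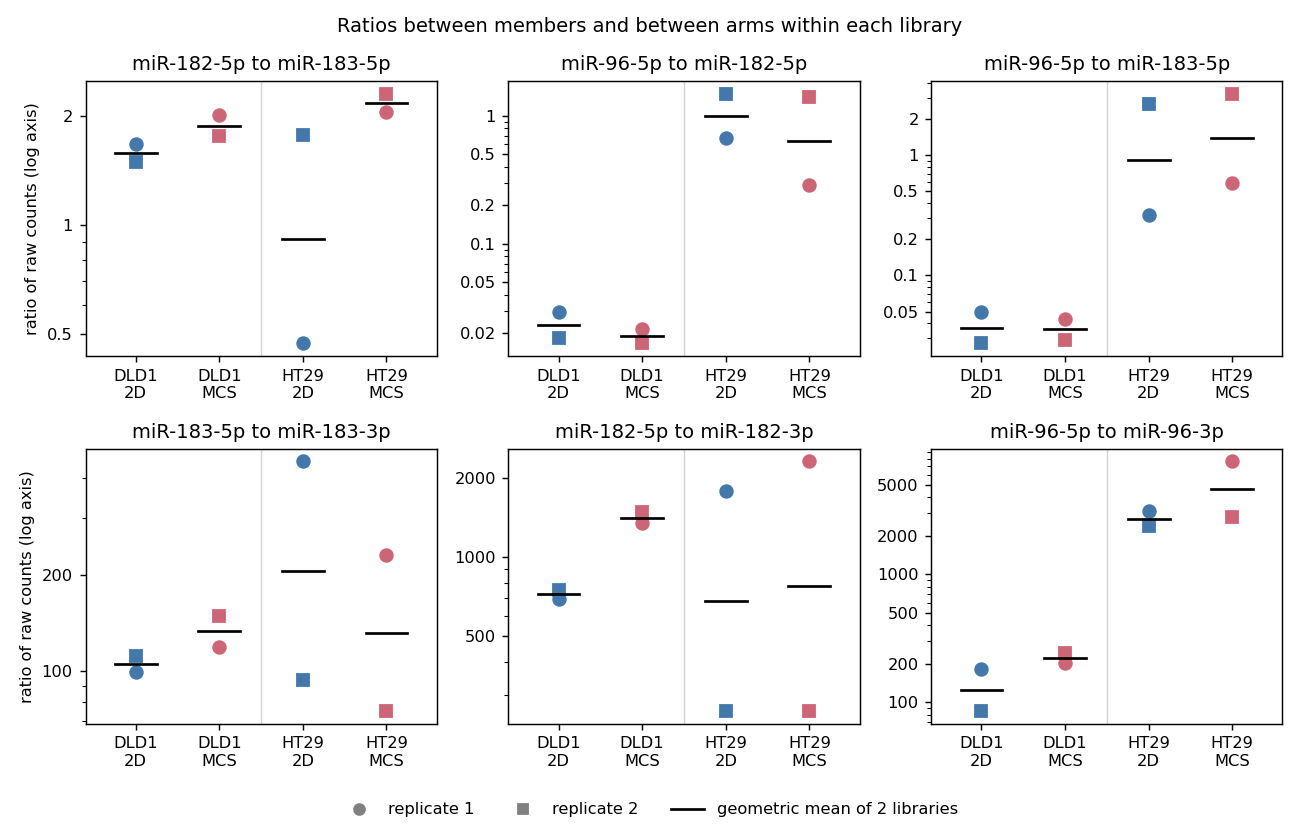
Ratios of raw counts within each library (log axis, a separate scale for each panel), between members in the upper row and between the leading and the opposite arm of each hairpin in the lower row; circles and squares are replicates 1 and 2 and bars are geometric means. The ratios of hsa-miR-96-5p to the other leading strands are higher in all 4 HT29 libraries than in all 4 DLD1 libraries.

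In DLD1 the count ratio of the leading to the opposite arm was higher in MCS for each hairpin, most of all for MIR182. hsa-miR-182-3p, the arm opposite hsa-miR-182-5p, had 11.6 and 10.1 normalized CPM in 2D and 10.0 and 11.6 in MCS, from 177 to 300 counts, and its log2 fold change was -0.00 ± 0.35 (SE; edgeR, adjusted p = 0.991). The ratio of hsa-miR-182-5p to hsa-miR-182-3p was 696 and 751 in 2D and 1346 and 1485 in MCS, a 1.95-fold difference. For the MIR183 hairpin the ratio of the 5p to the 3p arm was 99.6 and 111 in 2D and 119 and 149 in MCS. That of MIR96 was 181.6 and 85.2 in 2D and 203 and 242 in MCS, from 18 to 48 counts of hsa-miR-96-3p. The values of all 3 hairpins were without overlap, a pattern that an exact permutation test of 2 against 2 cannot take below p = 0.3333.

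A higher ratio of the major to the minor arm in MCS was common in DLD1. In a comparison chosen after the members' ratios had been seen, 84 hairpins had both arms above the filter on low counts, and in 36 of them (42.9%) both MCS libraries lay above both 2D libraries, against 14 with the reverse order. The median change of the ratio was 0.24 in log2. MIR182 ranked 7 of 84 with 0.97, and MIR183 ranked 38 with 0.34. MIR96 was not among the 84, because hsa-miR-96-3p did not reach the filter.

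In HT29 the arm ratios followed the replicate number rather than the culture. hsa-miR-182-5p to hsa-miR-182-3p was 1792 and 259 in 2D and 2317 and 260 in MCS, but hsa-miR-182-3p had 13 and 23 counts in the first replicates. The ratio of hsa-miR-183-5p to hsa-miR-183-3p was 451 and 93.7 in 2D and 231 and 75.0 in MCS. hsa-miR-96-5p to hsa-miR-96-3p was 3137 and 2372 in 2D and 7620 and 2801 in MCS, where hsa-miR-96-3p had 5 and 37 counts in 2D and 2 and 23 in MCS. This last ratio was higher in every HT29 library than in every DLD1 library, by 21.4-fold on average (exact permutation p = 0.0556, adjusted 0.111), with very few minor arm counts behind it.

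Neighbours of the cluster on 7q32 include miR-29a and miR-29b-1, which are known to target collagen transcripts, and miR-335. Of 10 mature miRNAs listed, 6 were tested in DLD1. In MCS 3 were called higher, beside 29.8% of all tested miRNAs: hsa-miR-335-5p by 0.74 in log2, hsa-miR-29a-3p by 0.99 and hsa-miR-29b-3p by 1.02. The opposite arms were not called, with hsa-miR-335-3p at -0.22, hsa-miR-29b-1-5p at -0.20 and hsa-miR-29a-5p at 0.25. None of the 6 was called lower, and their median of 0.49 stood beside 0.23 for all tested miRNAs. In HT29, 4 were tested and none was called. Reads of hsa-miR-29b-3p can also come from a second hairpin on another chromosome, and the counts do not separate the sources.

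Other polycistronic clusters were set beside this one for the span of log2 fold changes of their leading strands. A span can only widen with more strands, and miR-17-92 had 6 where the others had 3. Standard errors of single strands were 0.23 to 0.32 in DLD1 and 0.43 to 1.31 in HT29, so the spans do not measure how alike the strands moved. In DLD1 the log2 fold changes of the miR-183/miR-96/miR-182 leading strands spanned 0.35, from 0.62 to 0.97, and 3 of 3 were called higher, beside 29.8% of all tested miRNAs and with 0 or 1 left under TMM factors, library totals, upper quartile factors over the tested miRNAs, DESeq2 or a fit of all libraries. miR-200b/miR-200a/miR-429, which maintains epithelial identity by repressing the ZEB factors, spanned 0.72 with hsa-miR-200b-3p (1.26) and hsa-miR-200a-3p (1.28) called higher and hsa-miR-429 at 0.56 (edgeR, adjusted p = 0.0566). miR-106b-25 spanned 0.29 with 0 of 3 called. The oncogenic miR-17-92 cluster spanned 1.22, with hsa-miR-19b-3p called higher (0.61), hsa-miR-18a-5p called lower (-0.61) and the other 4 not called. In HT29 the span of the miR-183/miR-96/miR-182 leading strands was 1.89, from -1.30 to 0.59, against 0.72 for miR-200b/miR-200a/miR-429, 0.96 for miR-106b-25 and 1.54 for miR-17-92, and none of these strands was called.

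**Figure D4:**
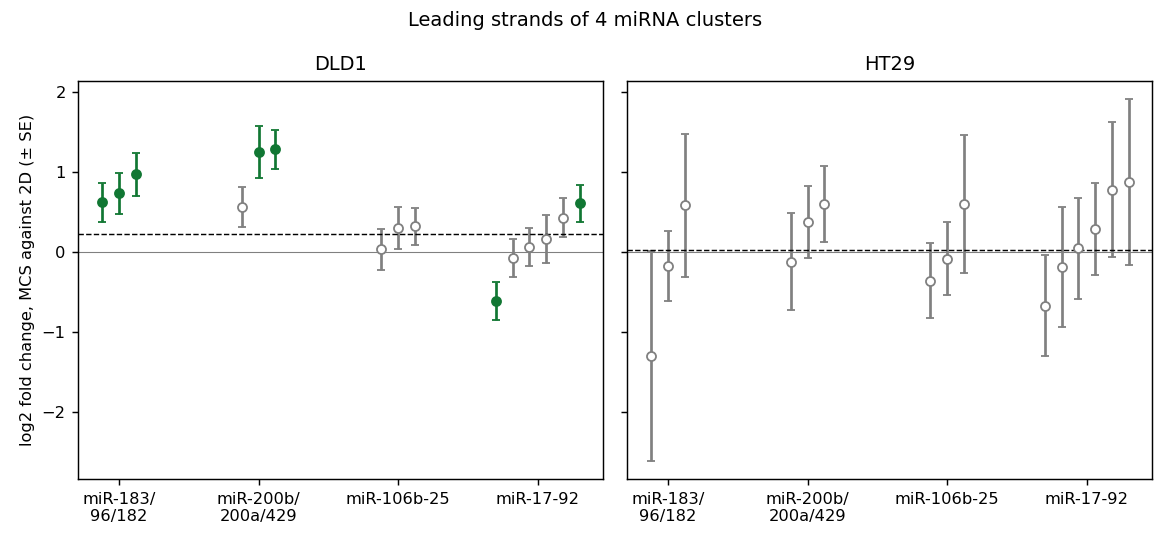
Log2 fold change of MCS against 2D (± SE) for the leading strands of 4 clusters, ordered by value within a cluster. Filled green points were called, and the dashed line is the median of all tested miRNAs (0.23 in DLD1 and 0.03 in HT29); in DLD1 the 3 strands of miR-183/miR-96/miR-182 lie between 0.62 and 0.97, and in HT29 they lie between -1.30 and 0.59.

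Finally, miRNAs with the most similar profile were sought among 246 others tested in both lines, by Pearson's r of log2 normalized CPM centred on the mean of each line over the 8 libraries. These r are descriptions, since the libraries share scaling factors and in HT29 a large replicate difference. hsa-miR-182-5p was closest to hsa-miR-146b-5p (0.991), hsa-miR-28-3p (0.983) and hsa-miR-203b-3p (0.979). hsa-miR-183-5p was closest to hsa-let-7b-3p (0.984), hsa-miR-98-5p (0.979) and hsa-miR-10a-5p (0.973), and hsa-miR-183-3p to hsa-miR-151a-5p (0.984), hsa-miR-28-5p (0.979) and hsa-let-7f-5p (0.975). For hsa-miR-96-5p the highest values were lower: 0.814 with hsa-miR-34a-5p, 0.809 with hsa-miR-7-1-3p and 0.788 with hsa-miR-101-3p.

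Among the members, hsa-miR-183-5p and hsa-miR-183-3p, the arms of the same hairpin, were most alike (0.969 over 8 libraries), followed by hsa-miR-182-5p with hsa-miR-183-3p (0.839) and with hsa-miR-183-5p (0.814). hsa-miR-96-5p stood apart, with 0.327 against hsa-miR-182-5p, 0.357 against hsa-miR-183-5p and 0.511 against hsa-miR-183-3p. No member was thus among the 3 closest profiles of any other member.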

How the data were processed

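Small RNA libraries of 8 cultures were sequenced on an Illumina HiSeq instrument. By the study's methods and the submitters' processing notes, which name different tool versions (those of the notes are given here), the authors trimmed adapters and the random bases of the kit with cutadapt 1.11, dropped reads under 15 bases or a quality of 25, mapped with Bowtie2 2.1.0 to hg19 and counted reads on mature miRNAs of miRBase 21. How reads mapping to several places were treated is not given in the sources used here. The deposited values are raw counts per mature miRNA, 10495634 to 26211524 per library. 15 rows that named no miRNA held 0.00988% of 1 HT29 library and were left out.

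Groups came from the labels. Each line was fitted on its own with edgeR 4.0.16 (R 4.3.3) by the quasi-likelihood test, with upper quartile factors and a mean of at least 10 CPM. A call needed a fold change of 1.5 and a Benjamini-Hochberg adjusted p under 0.05 over all tested miRNAs. Normalized CPM use the same factors. The scripts were tested on simulated data. Alternatives were TMM, RLE and library total scaling, DESeq2 1.42.0, edgeR's exact test, no filter, a joint fit, a replicate block and leaving out each library. Ratios within a library were compared by exact two-sided permutation tests. Intervals on shares cover counting error only.

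Named miRNAs are the members, their opposite arms, hsa-miR-1271-5p for its shared seed, the 7q32 neighbours, 3 comparison clusters, miR-10a-5p, and the 3 closest profiles per member. The members and lists were chosen with earlier results of these data known.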

Additional observations from a re-analysis of the deposited data

How the results depend on the processing

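In DLD1, 3 members were called. This became 1 with TMM factors, library totals or DESeq2, and 0 with upper quartile factors over the tested miRNAs or all libraries in 1 fit, which called 31 miRNAs in place of 143. The log2 fold change of hsa-miR-182-5p lost its call at 0.50 (upper quartile over tested) and 0.95 (1 fit). That of hsa-miR-183-5p lost it at 0.52 (TMM), 0.34 (totals), 0.26 (upper quartile over tested), 0.70 (1 fit) and 0.48 (DESeq2). hsa-miR-96-5p lost it at 0.44 (TMM), 0.52 (RLE), 0.28 (totals), 0.16 (upper quartile over tested), 0.62 (no filter), 0.61 (1 fit) and 0.40 (DESeq2), and hsa-miR-183-3p went to -0.083 with upper quartile factors over the tested miRNAs. In HT29, 0 calls became 15 without the filter, 5 with the exact test, 3 in 1 fit, 12 with DESeq2 and 12 at unadjusted p. Library totals turned hsa-miR-183-3p to 0.11 and hsa-miR-96-5p to 0.094 there, and the interaction of hsa-miR-182-5p to 0.18 (and again 0.18 with upper quartile over tested) and of hsa-miR-183-3p to 0.10. The cause was not tested.

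Replicates of the same number deviated together (r = 0.34 in DLD1 and 0.79 in HT29, across miRNAs), but 2 numbers per group do not establish pairs. With the replicate block 47 miRNAs were called in HT29 and hsa-miR-96-5p lost its DLD1 call at 0.68. The interaction was passed by 40 miRNAs in place of 0, with 1 member among them (hsa-miR-183-5p at -1.49, edgeR, adjusted p = 0.0298). In DLD1 the ratio of hsa-miR-96-5p to hsa-miR-183-5p differed between cultures by -0.03 in log2 over both numbers and by 0.11 in number 2 alone. From 2D to MCS it went from 0.0493 to 0.0436 in number 1 and from 0.0272 to 0.0293 in number 2.

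Leaving out 1 library gave 0 to 2 members and 92 to 124 miRNAs called in DLD1, with hsa-miR-182-5p at 0.73 to 0.97, hsa-miR-183-5p at 0.38 to 0.81 and hsa-miR-96-5p at 0.16 to 0.95. In HT29 it gave 0 to 2 calls, and ranges of -0.74 to 1.64 for hsa-miR-182-5p, -2.77 to 1.39 for hsa-miR-183-5p, -0.84 to 0.56 for hsa-miR-183-3p and -0.49 to 0.093 for hsa-miR-96-5p. Interaction terms ranged over -1.64 to 0.70, -3.40 to 0.70 and -1.16 to 0.19 for hsa-miR-182-5p, hsa-miR-183-5p and hsa-miR-183-3p. Log2 ratios that changed sign between lines ranged over -0.77 to 0.19 (miR-182-5p to miR-183-5p), -0.092 to 1.04 (miR-183-5p to miR-183-3p) and -1.27 to 0.31 (miR-182-5p to miR-182-3p). Between cultures, miR-96-5p to miR-182-5p ranged over -0.63 to 0.062 in DLD1, -1.81 to 0.49 in HT29 and -1.05 to 0.10 in both lines. For miR-96-5p to miR-183-5p these were -0.46 to 0.39, -0.94 to 2.13 and -0.49 to 1.05. In HT29 and in both lines, miR-183-5p to miR-183-3p ranged over -1.78 to 0.49 and -0.72 to 0.41, and miR-182-5p to miR-182-3p over -1.39 to 1.77 and -0.21 to 1.37. With 2 libraries per group, p-values measure the spread of these libraries only.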

Other observations

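The epithelial and intestinal marker lists were also higher in DLD1 MCS. The 5 epithelial miRNAs of the miR-200 family summed to 94896 to 109569 CPM of the library total in 2D and 166717 to 168292 in MCS, with 4 of 5 called higher. The 3 intestinal markers (miR-192, miR-194 and miR-215) summed to 2365 to 2537 in 2D and 8087 to 8744 in MCS, with 2 of 3 called higher. Of all miRNAs tested in DLD1, 29.8% were called higher in MCS, a share that depended on the scaling. The fibroblast and smooth muscle markers did not rise, at 6.91 to 11.3 in 2D and 5.26 to 5.91 in MCS, and none was tested. In HT29 the sums were 51777 to 161373 and 65805 to 173581 for the epithelial list and 21117 to 39565 and 83512 to 104887 for the intestinal list, with no call. The part of these lists in the cluster's values was not tested.

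Compared within a replicate number, the MCS to 2D ratio of normalized CPM in DLD1 was above 1 for every member and in both numbers. It was 1.67 and 2.27 for hsa-miR-182-5p, 1.39 and 1.93 for hsa-miR-183-5p, 1.23 and 2.08 for hsa-miR-96-5p and 1.16 and 1.44 for hsa-miR-183-3p, higher in number 2 each time. Ratios above 1 follow from the lack of overlap on this scale, with MCS above 2D, which 45.4% of the tested miRNAs had. In CPM of the library total, hsa-miR-183-3p went the other way in number 2, from 53.1 in 2D to 48.8 in MCS. In HT29 hsa-miR-182-5p was at 1.57 and 1.27, above 1 in both numbers, and hsa-miR-183-5p was at 0.359 and 0.977, below 1 in both. hsa-miR-96-5p (0.669 and 1.20) and hsa-miR-183-3p (0.701 and 1.22) lay on opposite sides of 1.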
